A study of Mus musculus with 47 samples.

Results

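The genes described here encode 10 subunits of the ionotropic glutamate receptors, out of 35486 genes in a table of hippocampal RNA-seq counts. They were chosen by name: the AMPA receptor subunits Gria1, Gria2, Gria3 and Gria4, the NMDA receptor subunits Grin1, Grin2a and Grin2b, and the kainate receptor subunits Grik2, Grik3 and Grik5. All 10 passed the count filter and were tested among 17778 genes. The hippocampi came from 47 male C57BL/6J mice, and each library is 1 mouse. Young Veh (n = 13) and Young PF4 (n = 12) were young mice, with labelled ages between 3.75 and 5.26 months, that received vehicle or mouse platelet factor 4 (PF4) by intraperitoneal injection. Old Veh (n = 12) and Old PF4 (n = 10) received the same at 17.4 to 20.23 months. PF4 is a chemokine released by activated platelets, and the study asked what it changes in the young and the aging hippocampus. The tissue was whole hippocampus, so a lower RNA level through fewer cells of a type cannot be told apart from less RNA per cell.

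Ionotropic glutamate receptors are cation channels that open when glutamate binds, and they carry most fast excitatory transmission in the brain. AMPA receptors, built from GluA subunits (Gria genes), carry the rapid part of the synaptic current, and the GluA2 subunit keeps calcium from passing. NMDA receptors combine the obligatory GluN1 subunit (Grin1) with GluN2 subunits such as GluN2A (Grin2a) and GluN2B (Grin2b), pass calcium, and trigger the synaptic plasticity that underlies learning in the hippocampus. GluN2B dominates early in development and GluN2A rises as circuits mature. Kainate receptors act on both sides of the synapse, with GluK2 and GluK3 (Grik2 and Grik3) able to form channels by themselves and GluK5 (Grik5) needing a partner.

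The subunits share one ancestral channel. Over windows of 10 codons, the encoded residues of 9 of the genes matched Gria2 best at a stretch in the third membrane segment, which forms the gate. The 30 bases of this stretch are shown for 9 of the genes because they carry the identity of the family and because reads from near-identical stretches could be counted on the wrong member. Each is read on the gene's own strand from GRCm38, and capitals mark the 16 bases that these 9 genes share.
Gria1: tcaTAcACaGCcAAccTgGCtGCcTTccTg
Gria2: tccTAcACgGCtAActTaGCtGCcTTccTg
Gria3: tccTAcACtGCaAAccTtGCtGCtTTccTg
Gria4: tccTAcACtGCtAAtcTgGCtGCaTTccTg
Grin1: tccTAcACtGCcAAccTgGCaGCcTTccTg
Grin2a: agtTAcACaGCcAAccTgGCtGCcTTcaTg
Grik2: tcgTAtACcGCtAAccTaGCcGCcTTtcTg
Grik3: tccTAcACgGCcAAccTgGCtGCcTTccTg
Grik5: tccTAcACgGCcAAccTgGCtGCcTTccTc

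The stretch lies in exon 8 of 12 of the Grin2a transcript used (chr16:9653444-9653473, minus strand) and in exon 12 of 16 of Gria2 (chr3:80702566-80702595, minus strand). Of its 10 codons, all 10 give the Gria2 residue in the other AMPA subunits, in Grin1 and in the 3 kainate subunits, and 9 do so in Grin2a. Base for base, the other 8 genes shown match Gria2 at 22 to 27 of the 30 positions. Within coding sequence, the longest identical run of any pair was 41 bases, between Gria2 and Gria4. Across whole annotated transcripts, the longest identical run between any pair of the 10 genes was 57 bases, between Gria3 and Gria4. The next were 56 bases between Gria2 and Gria3 and 55 between Gria2 and Gria4. Only reads lying entirely inside such runs could be split between members.

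Several members overlap other annotated genes on the genome. Libraries were made without strand information, so reads from both strands were counted together. Grin1 (chr2:25291181-25319187) shares exon sequence with an antisense RNA, Grin1os, which held 65088 reads over all libraries beside 202456 for Grin1, so part of either count may belong to the other. Grin2b (chr6:135713233-136173511) overlaps 3 small noncoding genes of the table with 3383 reads together, against 177738 of its own. Grik2 (chr10:49094833-49788766) holds 6 small genes inside its introns with 3404 reads, against 37541 of its own. The other 7 members overlap no other gene of the table.

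Total reads ranged from 2242879 to 21112908 per library (median 10374007), and 8 libraries held fewer than 5000000 (1 Young Veh, 2 Young PF4, 4 Old Veh and 1 Old PF4). Old libraries carry the labelled numbers 1 to 23 and young libraries 24 to 48, so age and library number cannot be told apart. A length index, the mean log2 level of genes with long transcripts (at least 4594 bases) minus that of genes with short ones (at most 2006 bases), was computed. It was lowest at -0.35 in Young Veh 4 and -0.23 in Old PF4 8, and between -0.16 and 0.18 in the other 45. Young PF4 4 came next at -0.16, then Old Veh 12 at -0.084. The 8 libraries below 5000000 reads are columns 1 to 8 of the count table, and their length index lay between 0.016 and 0.18. Whether they differ from the others in more than depth was not tested. Choroid plexus markers, from tissue that adjoins the hippocampus, varied most between libraries. Their summed level ran from 12.0 to 4259 CPM (reads per 1000000, with TMM-scaled library sizes) in Young Veh, from 94.0 to 3448 in Young PF4, from 15.1 to 4259 in Old Veh and from 25.9 to 3280 in Old PF4, and 4 of the 10 (Kcne2, Otx2, Aqp1 and Slc4a5) were at 0 in some library. Neuronal markers were at high levels everywhere: the 8 excitatory neuron markers summed to between 3086 and 6132 CPM, and none was at 0 in any library.

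Among the subunits, the AMPA receptor genes Gria1 and Gria2 were the most abundant and the kainate receptor gene Grik3 the least. Levels of different genes are compared as CPM per kilobase of annotated exon, which corrects for length but depends on which exons are annotated. Gria1 averaged 131 ± 10.1 CPM per kb (SD, n = 47), with libraries from 113 to 154. Gria2 followed at 87.3 ± 5.83, Grin1 at 43.4 ± 5.34, Grin2a at 30.1 ± 4.40 and Gria3 at 22.4 ± 1.61 CPM per kb. Grin2b at 15.2 ± 1.93 and Grik5 at 14.7 ± 2.32 CPM per kb were not separated, since Grin2b was the higher in 29 of 47 libraries. Gria4 at 6.11 ± 0.587 and Grik2 at 5.98 ± 0.571 were not separated either, with Gria4 higher in 24 of 47. Grik3 was lowest at 1.81 ± 0.384 CPM per kb.

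**Figure D1:**
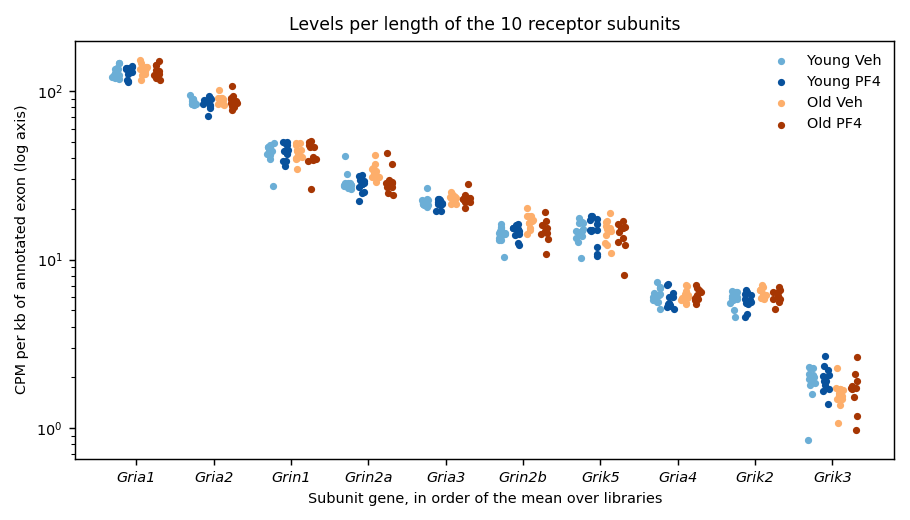
Level of each subunit gene in each library (points, colored by group), as CPM per kb of annotated exon on a log axis, with genes in order of their mean over 47 libraries. The order runs from Gria1 (mean 131) to Grik3 (mean 1.81), and the pairs Grin2b and Grik5, and Gria4 and Grik2, lie on top of each other.

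Every other step of this order held in nearly all libraries. Each gene was divided by the same exon length in every library, so these counts do not show whether another choice of length would keep the order. Without division by length, Gria2 averaged 1351 CPM in Young Veh and Gria1 783. Per kb of annotated exon, the steps were as follows. Gria1 was above Gria2, Gria2 above Grin1, Grin2a above Gria3, Gria3 above Grin2b, Grik5 above Gria4 and Grik2 above Grik3 in 47 of 47 libraries. Grin1 was above Grin2a in 44 of 47. The spread between libraries was smallest for Gria1, whose highest level was 1.36 times its lowest, and largest for Grik3, at 3.15 times. Grik3 also rested on the fewest reads, 36 to 394 per library, whereas Gria2 had 2946 to 28067.

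Comparing Old Veh with Young Veh asks how these genes differ with age in mice not given PF4, although choroid plexus content and library number differ between the groups as well. Grin2b, which encodes GluN2B, rose in old mice, and it was the only member called. Its level ran from 257 CPM through a median of 355 to 402 in the 13 Young Veh libraries. In the 12 Old Veh libraries it ran from 350.1 through 422 to 502 CPM. The ranges overlapped, but 9 of 12 Old Veh libraries lay above every Young Veh library and 11 of 12 lay above the Young Veh median. The means were 351 ± 36.8 and 420.3 ± 41.1 CPM (SD), a log2 fold change of 0.26 (SE 0.062), or 19.5% more, with an approximate 95% interval from 9.79% to 30.1% (edgeR quasi-likelihood test, Benjamini-Hochberg adjusted p = 0.0120). This 1 call among 10 members stands beside 2.77% of all genes tested (492 of 17778), and 2.16% were called higher. DESeq2's test also called this member alone, beside 3.41% of all genes. At an unadjusted p below 0.05 there were 4 members and 15.2% of all genes. Libraries with strong choroid plexus signal had less Grin2b (r = -0.48 over 47 libraries of shared depth and composition, and -0.38 with group means removed). Over all libraries Gria2 was at r = -0.455, Gria1 at -0.422 and Grin2a at -0.421, while Grik3 was at 0.181. The median summed level of the choroid plexus markers was 47.1 CPM in Old Veh against 1943 in Young Veh. The part of this signal in the Grin2b difference was not tested beyond the fit with the choroid plexus score as a covariate given further on.

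**Figure D2:**
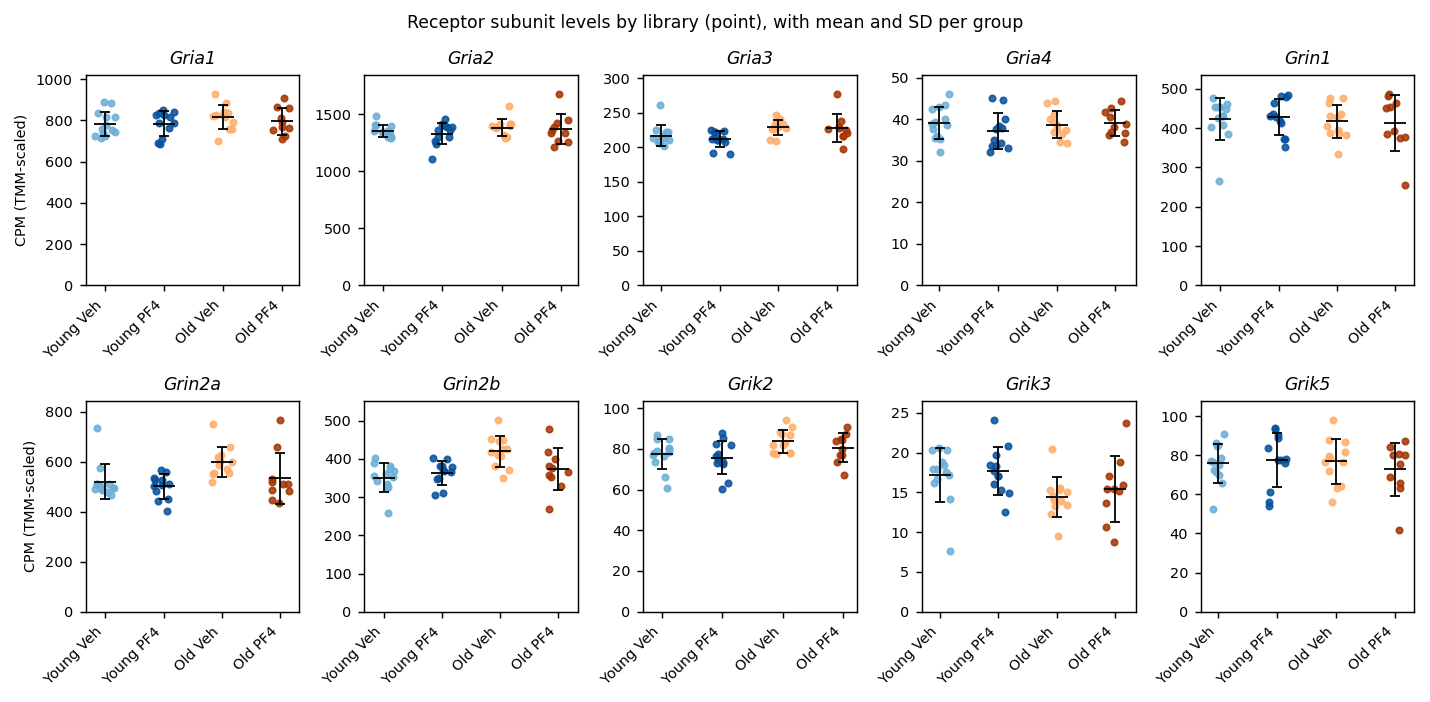
CPM of each subunit gene (y axes, from 0) in each library (points) of the 4 groups (x axes), with the group mean and SD in black. Old Veh lies highest for Grin2b (mean 420.3 CPM against 351 in Young Veh), and the lowest Grin1 and Grin2b points of Young Veh and Old PF4 are the libraries Young Veh 4 and Old PF4 8.

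The other NMDA receptor genes did not pass the test. Grin2a, which encodes GluN2A, ran from 468 through 496 to 736 CPM in Young Veh and from 519 through 595 to 749.9 CPM in Old Veh. The difference was 0.21 on the log2 scale (SE 0.070, adjusted p = 0.1003), and 12 of 12 Old Veh libraries were above the Young Veh median. A single Young Veh library, Young Veh 4, held the 736 CPM, and the next highest of that group was 577 CPM. Grin1, the subunit that every NMDA receptor contains, averaged 417 ± 42.8 CPM in Old Veh and 423 ± 53.7 in Young Veh, a log2 difference of -0.021 (SE 0.075, adjusted p = 0.941), whose interval ran from -11.1% to 9.12%.

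The AMPA receptor genes lay close together in the same comparison. Gria1 averaged 816 ± 59.8 CPM in Old Veh and 783 ± 60.2 in Young Veh, a log2 difference of 0.060 (SE 0.045, adjusted p = 0.559). Gria2, the calcium-limiting subunit, averaged 1382 ± 76.3 and 1351 ± 55.8 CPM. Its log2 difference was 0.032 (SE 0.041, adjusted p = 0.774), with an interval from -3.26% to 8.06%. Gria3 averaged 229 ± 10.7 and 217 ± 14.9 CPM (log2 difference 0.076, SE 0.039, adjusted p = 0.346). Gria4, the subunit with the lowest AMPA level here, averaged 38.7 ± 3.23 and 39.1 ± 3.93 CPM (log2 difference -0.0079, SE 0.056, adjusted p = 0.977).

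Kainate receptor genes had values on both sides of 0. Grik2 averaged 83.8 ± 5.67 CPM in Old Veh and 77.3 ± 7.29 in Young Veh, a log2 difference of 0.11 (SE 0.054, adjusted p = 0.290). Grik3 ran from 9.56 through 14.3 to 20.5 CPM in Old Veh and from 7.65 through 17.9 to 20.6 in Young Veh. Only 1 of 12 Old Veh libraries was above the Young Veh median, and the log2 difference was -0.26 (SE 0.12, adjusted p = 0.288). Grik5 averaged 76.8 ± 11.6 and 75.8 ± 10.1 CPM (log2 difference 0.0047, SE 0.094, adjusted p = 0.993). The median over the 10 members was 0.046, beside -0.013 over all genes tested.

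**Figure D3:**
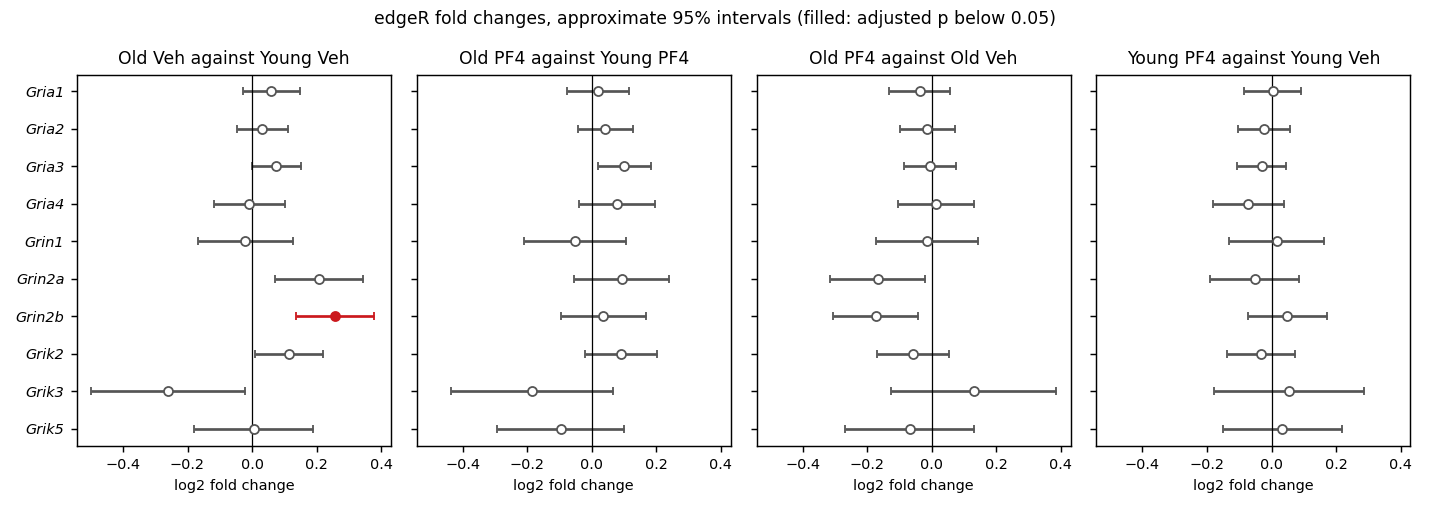
Log2 fold changes of the 10 subunit genes (y axis) in 4 comparisons (panels), from edgeR, with approximate 95% intervals as bars. Filled red marks an adjusted p below 0.05, which only Grin2b in Old Veh against Young Veh reached (0.26), and intervals of most other genes include 0.

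Young Veh 4 and Old PF4 8, the 2 libraries of lowest length index, stood apart from the rest of their groups in the same direction for 7 of the 10 members, although they differ in age and treatment. Grin2a was 1.48 times the median of the other libraries of its group in Young Veh 4 (736 CPM) and 1.5 times in Old PF4 8 (768 CPM), above all of them in both. Grin2b was 0.721 times that median in Young Veh 4 (257 CPM) and 0.715 times in Old PF4 8 (269.6 CPM), below all of them in both. Grin1 at 0.604 and 0.565 times, Grik5 at 0.686 and 0.522 times, Grik3 at 0.428 and 0.566 times and Grik2 at 0.771 and 0.798 times were also below all others of their groups. Gria3 was above all others in both, at 1.23 and 1.24 times, while Gria1 lay within its group in both, at 0.960 and 0.967 times. The 2 libraries differed in the other 2 members. Gria2 was within its group in Young Veh 4 (1.05 times) and above all others in Old PF4 8 (1.26 times), and Gria4 was below all others in Young Veh 4 (0.822 times) and within its group in Old PF4 8 (1.02 times). Young PF4 4 and Old Veh 12, next lowest in length index, went part of the same way. Each had the highest Grin2a and the lowest Grin1 and Grik3 of its group. Their log2 ratios of Grin2b to Grin2a reads were -0.86 and -0.97, but neither had the lowest Grin2b of its group.

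**Figure D4:**
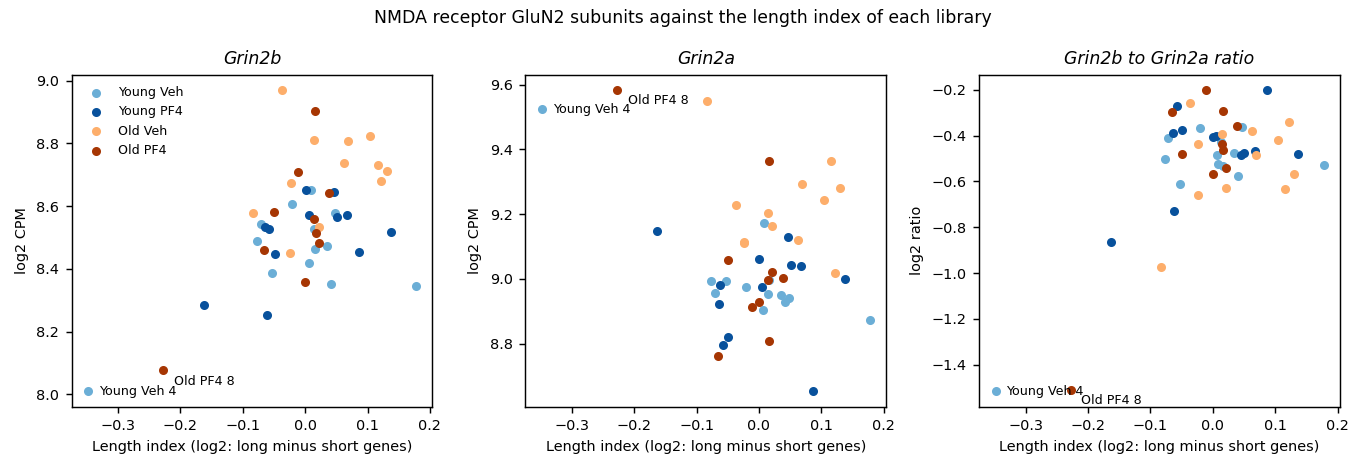
Log2 CPM of Grin2b and Grin2a, and the log2 ratio of their reads (y axes), against the length index of each library (x axes, log2 units), colored by group. Young Veh 4 and Old PF4 8 lie at the far left with a log2 ratio of -1.52 and -1.51, below all other libraries.

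Without these 2 libraries, a choice made after the data had been seen, 4 of the 10 members were called in Old Veh against Young Veh, where 4.55% of all genes were called. Grin2b (log2 fold change 0.23, SE 0.052, adjusted p = 0.00594), Grin2a (0.26, SE 0.054, adjusted p = 0.00179) and Gria3 (0.10, SE 0.029, adjusted p = 0.0291) were higher in old mice, and Grik3 (-0.33, SE 0.095, adjusted p = 0.0313) was lower. With all libraries and the length index as a covariate, 3 members were called, beside 5.07% of all genes. These were Grin2b (0.21, adjusted p = 0.0214), Grin2a (0.27, adjusted p = 0.00475) and Grik3 (-0.38, adjusted p = 0.0105). Leaving out each library of the 2 groups in turn kept Grin2b called in 25 of 25 fits, with log2 fold changes from 0.22 to 0.28, and added Grin2a (0.26, adjusted p = 0.0123) without Young Veh 4. Without Old Veh 12, the library of lowest length index in Old Veh, the values moved the other way. Grin2a was then 0.18 (adjusted p = 0.172) and Grik3 -0.21 (adjusted p = 0.433).

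Other fits ended the Grin2b call without turning its direction. With the choroid plexus score as a covariate the log2 fold change was 0.20 (adjusted p = 0.0763), and 2.02% of all genes were called. Without the 8 libraries below 5000000 reads it was 0.24 (adjusted p = 0.0916), with 0.975% of all genes called. With the library number as a covariate it was 0.26 with an SE of 0.14 (adjusted p = 0.772), and 0.0% of genes and no member were called, no member having an unadjusted p below 0.05 either. With the excitatory neuron score as a covariate the call held (0.27, adjusted p = 0.00184, 4.04% of all genes called). The members called only in the fits on the length index had these values with the choroid plexus score and with the library number. Grin2a was at 0.15 and 0.14, Gria3 at 0.054 and 0.024, and Grik3 at -0.26 and -0.0645.

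**Figure D5:**
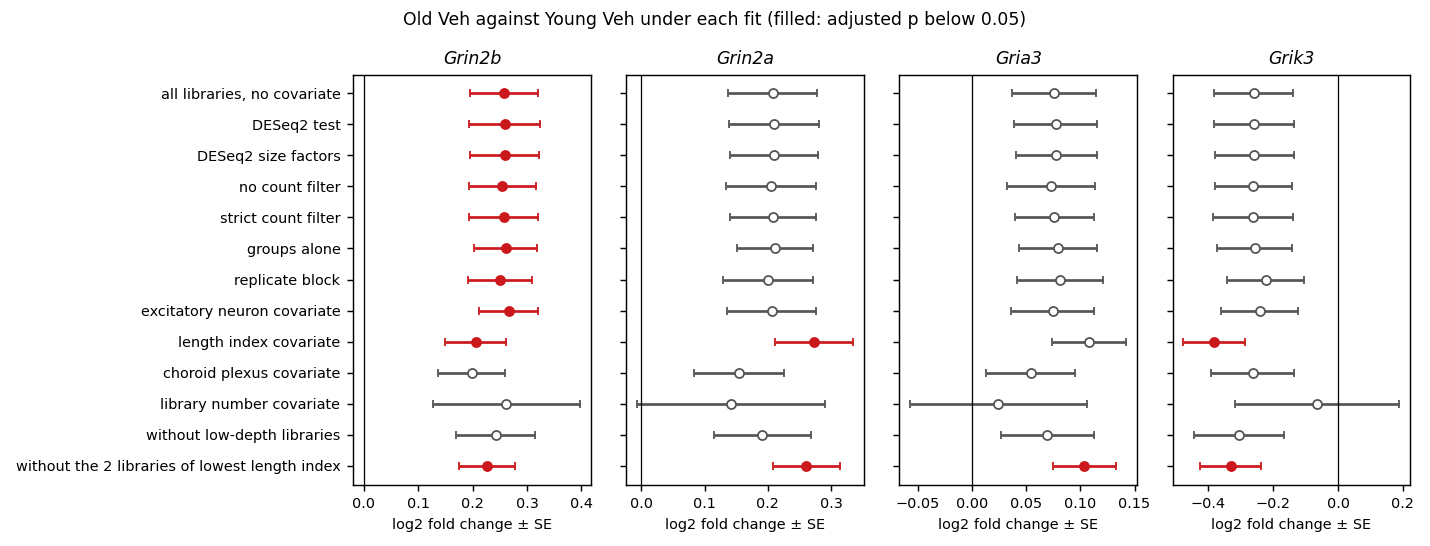
Log2 fold change with SE (x axes) of Grin2b, Grin2a, Gria3 and Grik3 in Old Veh against Young Veh under each fit (y axis), filled red where the adjusted p was below 0.05. Grin2b stays between 0.20 and 0.27, and Grin2a, Gria3 and Grik3 are filled only in fits that use or follow the length index.

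In mice given PF4, the comparison of old with young called none of the 10 members (edgeR, 0.332% of all genes called, 59 of 17778). DESeq2's test also called none (0.523% of all genes), and 1 member, Gria3, had an unadjusted p below 0.05 (8.27% of all genes). Grin2b ran from 269.6 through 371 to 478 CPM in Old PF4 and from 305 through 369.5 to 402 in Young PF4. The log2 difference was 0.035 (SE 0.067, adjusted p = 0.949), with an interval from -6.42% to 12.2%. Grin2a averaged 535 ± 102 and 502 ± 48.6 CPM (log2 difference 0.093, SE 0.075, adjusted p = 0.818), and the difference was 0.020 without Old PF4 8. Gria3 averaged 228 ± 20.5 and 212 ± 11.5 CPM, with 5 of 10 Old PF4 libraries above every Young PF4 library (log2 difference 0.10, SE 0.041, adjusted p = 0.452). Its difference was 0.063 without Old PF4 8 and 0.070 (unadjusted p = 0.116) without the 8 libraries of lowest depth. Grik3 averaged 15.5 ± 4.14 and 17.7 ± 3.00 CPM (log2 difference -0.18, SE 0.13, adjusted p = 0.754), and the difference was -0.11 without Old PF4 8. The remaining members had log2 differences between -0.097 (Grik5) and 0.090 (Grik2), and that of Grik5 was -0.029 without Old PF4 8. Age and library number are confounded in this comparison as in the last. Choroid plexus content differed here too, with a median summed marker level of 65.9 CPM in Old PF4 against 2380 in Young PF4. With the choroid plexus score as a covariate in edgeR, Gria3 was 0.081 (unadjusted p = 0.0672) and Grin2b -0.019.

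Comparing Old PF4 with Old Veh asks what PF4 changes in aging mice, and again none of the 10 members was called. The edgeR test called 0.0337% of all genes (6 of 17778), and DESeq2's test, which called 0.107%, also called no member. At an unadjusted p below 0.05 there were 2 members, Grin2b and Grin2a, and 6.2% of all genes. Grin2b averaged 373 ± 55.2 CPM in Old PF4 and 420.3 ± 41.1 in Old Veh, with 1 of 10 Old PF4 libraries above the Old Veh median. The log2 difference was -0.17 (SE 0.067, adjusted p = 0.626), with an interval from -19.0% to -2.88%. Grin2a ran from 433 through 512 to 768 CPM in Old PF4 against 519 through 595 to 749.9 in Old Veh, and 6 of 10 Old PF4 libraries lay below every Old Veh library. Its log2 difference was -0.17 (SE 0.075, adjusted p = 0.756), and it was -0.24 (adjusted p = 0.0979) without Young Veh 4 and Old PF4 8. That of Grin2b was then -0.13 (adjusted p = 0.546), and -0.12 (adjusted p = 0.654) with the length index as a covariate.

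No cell type or hippocampal field marker was called between Old PF4 and Old Veh by edgeR, and 8 of them had an unadjusted p below 0.05. The 4 dentate gyrus markers (median log2 difference -0.13) and the 4 CA3 markers (median -0.14) all had values below 0, with Cpne4 of CA3 at -0.14 (unadjusted p = 0.0208, adjusted p = 0.708). Camk2a, an excitatory neuron marker, was at -0.20 (unadjusted p = 0.0412, adjusted p = 0.792), while the median of the 8 excitatory neuron markers was 0.031. The 6 microglia markers all had values above 0 (median 0.094), with C1qa at an unadjusted p of 0.0242. The smallest p was that of the astrocyte marker Aldh1l1 (0.19, unadjusted p = 0.00240, adjusted p = 0.391). At an unadjusted p below 0.05 were 2 of 6 astrocyte markers, 2 of 7 interneuron markers (median 0.10, Pvalb at 0.22), and the CA1 marker Pou3f1 (0.24, unadjusted p = 0.0488). The 6 oligodendrocyte markers all had values above 0 (median 0.064). The part of these markers, other than the excitatory neuron score used as a covariate, in the Grin2b and Grin2a values was not tested.

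The AMPA receptor genes lay closer together between Old PF4 and Old Veh. Gria1, Gria2, Gria3 and Gria4 had log2 differences of -0.038 (SE 0.049), -0.014 (SE 0.044), -0.0055 (SE 0.041) and 0.014 (SE 0.060), with adjusted p of 0.992 or above. The interval for Gria3, the narrowest of the 4, ran from -5.83% to 5.38%. Grin1 differed by -0.015 (SE 0.080), Grik2 by -0.058 (SE 0.058), Grik3 by 0.13 (SE 0.13) and Grik5 by -0.069 (SE 0.10), with adjusted p of 0.976 or above. The Grik3 value was 0.21 (unadjusted p = 0.0488, adjusted p = 0.637) without Young Veh 4 and Old PF4 8 and 0.27 (unadjusted p = 0.0113, adjusted p = 0.476) with the length index as a covariate, larger in size than that of Grin2b in those fits. It was 0.052 with the replicate block, 0.043 with the library number as a covariate and 0.039 without Old PF4 2. Old Veh libraries are numbered 1 to 12 and Old PF4 libraries 13 to 23, so that the 2 groups do not overlap in library number. This comparison and that of Old Veh with Young Veh share the 12 Old Veh libraries, so that a high Old Veh level enters both with opposite sign.

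In young mice, no member was called between PF4 and vehicle. The edgeR test called 0.0% of all genes, DESeq2's test called none either, and 213 genes (1.2%) but no member had an unadjusted p below 0.05. Grin2b averaged 364 ± 30.6 CPM in Young PF4 and 351 ± 36.8 in Young Veh, a log2 difference of 0.048 (SE 0.062), with an interval from -5.00% to 12.6%, and the difference was 0.015 without Young Veh 4. Gria4 had the smallest p, with 37.1 ± 4.35 and 39.1 ± 3.93 CPM (log2 difference -0.072, SE 0.056, unadjusted p = 0.202, adjusted p = 1.00). The 10 log2 differences lay between -0.072 and 0.054.

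The difference of the PF4 effects between ages was tested directly as an interaction. It was called for none of the members and for 0.0% of all genes, by edgeR and by DESeq2, with 707 genes (3.98%) and 1 member at an unadjusted p below 0.05 in edgeR. Grin2b had the smallest p among the members, with a PF4 difference lower by 0.22 on the log2 scale in old than in young mice (SE 0.092, unadjusted p = 0.0190, adjusted p = 1.00). For Grin2a the value was -0.11 (SE 0.10, adjusted p = 1.00), and -0.19 without Old PF4 8. With the length index as a covariate (-0.21, unadjusted p = 0.0229, adjusted p = 0.994) and without Young Veh 4 and Old PF4 8 (-0.24, unadjusted p = 0.00412, adjusted p = 0.646), Grin2a had the smallest p among the members. It was then the only member at an unadjusted p below 0.05, so Grin2b was not. The Grin2b value was -0.18 without Old PF4 8 alone. The interval for Gria2 ran from -0.11 to 0.13 on the log2 scale.

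Subunit balance within a library was described by 3 ratios of reads, which do not depend on library size. None of 12 permutation tests passed after adjustment over the 12. The mean log2 ratio of Grin2b to Grin2a reads was -0.51 ± 0.19 (SD, n = 12) in Old Veh and -0.56 ± 0.30 (n = 13) in Young Veh, 0.049 apart (permutation test, two-sided, p = 0.701, adjusted p = 0.820). It was -0.52 ± 0.37 (n = 10) in Old PF4 and -0.46 ± 0.18 (n = 12) in Young PF4 (permutation test, difference -0.052, adjusted p = 0.820). The wide spread in Young Veh and Old PF4 came from Young Veh 4 and Old PF4 8: the other Young Veh libraries ran from -0.61 to -0.36 and the other Old PF4 libraries from -0.57 to -0.20. Without these 2 libraries the difference of Old Veh from Young Veh was -0.031 and that of Old PF4 from Young PF4 was 0.058, both of opposite sign.

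The mean log2 ratio of Gria1 to Gria2 reads was -0.79 ± 0.092 in Young Veh, -0.76 ± 0.10 in Young PF4, -0.76 ± 0.055 in Old Veh and -0.78 ± 0.17 in Old PF4, and the 4 differences lay between -0.021 and 0.029 (permutation tests, adjusted p = 0.820 in each). Grik2 to Grik5 averaged 0.17 ± 0.24 in Old PF4 and -0.021 ± 0.18 in Young PF4 (permutation test, difference 0.19, p = 0.0409, adjusted p = 0.491). In vehicle mice the Grik2 to Grik5 difference between ages was 0.10 (permutation test, adjusted p = 0.820).

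Across the 47 libraries the members fell into sets that varied together. The correlations describe libraries that share depth and cell composition, and no test was made. Grin1 and Grik5 went together most closely (r = 0.87 for log2 CPM), followed by Gria3 with Grin2a (r = 0.76) and Gria2 with Grin2a (r = 0.75), and Grin2a ran against Grik3 (r = -0.76). Grin2a and Grin2b were nearly unrelated over all libraries (r = 0.099) and went together without Young Veh 4 and Old PF4 8 (r = 0.58, n = 45). Grin1 with Grik5 stayed at r = 0.81 without them, and Grin1 with Grin2b dropped from 0.62 to 0.36.

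The genes of the whole table whose levels followed Grin2b most closely over 47 libraries were Ryr2 (r = 0.91), Bsn (r = 0.91) and Pclo (r = 0.89). Within groups, with group means removed, the values were 0.90, 0.88 and 0.88. The longest annotated transcripts of these 3 have 16814, 15938 and 20084 bases, and that of Grin2b has 24060. The length index itself correlated with Grin2b at r = 0.55 over all libraries and at r = 0.27 without Young Veh 4 and Old PF4 8. Grik2 (longest transcript 9427 bases, r = 0.629) and Grik3 (8973 bases, r = 0.558) went the same way as Grin2b. Without the 2 libraries Grik2 was at r = 0.48 and Grik3 at r = 0.249. Other members did not go with length. Grin2a, with a longest transcript of 14634 bases, was at r = -0.312 and Gria2, with 10371 bases, at r = -0.273, whereas Grin1 with 4276 bases was at r = 0.526 and Grik5 with 4061 bases at r = 0.495. The values of these last 4 also rested largely on Young Veh 4 and Old PF4 8. Without them (n = 45) Grin2a was at r = 0.062, Gria2 at -0.061, Grin1 at 0.079 and Grik5 at 0.215. Grin1 was most like its antisense partner Grin1os (r = 0.98), a pair named after its values were seen, and these reads cannot be told apart by strand.

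The other ionotropic subunits gave no call. None of the 7 genes Grin2c, Grin2d, Grin3a, Grin3b, Grik1, Grik4 and Grid1 was called in any comparison by edgeR, and none had an unadjusted p below 0.05. The smallest p in Old Veh against Young Veh was that of Grin2d, an NMDA subunit (log2 difference -0.17, SE 0.092, adjusted p = 0.389), and in Old PF4 against Old Veh it was again Grin2d (0.16, SE 0.099, adjusted p = 0.895). Grik1, a kainate subunit, had it in Young PF4 against Young Veh (0.15, SE 0.076, adjusted p = 1.00), and Grin3a, an NMDA subunit, in the interaction (0.11, SE 0.10, adjusted p = 1.00).

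Of 14 auxiliary subunits, which bind the receptors and set their gating and trafficking, 1 was called in Old Veh against Young Veh, where 2.77% of all genes were. At an unadjusted p below 0.05 there were 4 of 14 there (15.2% of all genes) and 3 of 14 in Old PF4 against Old Veh (6.2%). Neto1, an auxiliary protein of kainate receptors that also binds NMDA receptors, rose in Old Veh over Young Veh (log2 fold change 0.31, SE 0.051, adjusted p = 0.000110). In Old PF4 against Young PF4 its value was 0.22 (SE 0.055, adjusted p = 0.0596), and there DESeq2's test called it (adjusted p = 0.0281). With the library number as a covariate its difference in Old Veh against Young Veh was 0.25 (adjusted p = 0.698). The median of the 14 in Old Veh against Young Veh was 0.052. Shisa6, which binds AMPA receptors, had the smallest p in Old PF4 against Old Veh (-0.26, SE 0.080, adjusted p = 0.354). Shisa9, of the same family, had it in Young PF4 against Young Veh (0.075, SE 0.049, adjusted p = 1.00), and Shisa7 in the interaction (-0.27, SE 0.096, adjusted p = 1.00).

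Of 20 scaffold and trafficking proteins, which hold receptors at the synapse, Dlg2 alone was called, in Old Veh against Young Veh (2.77% of all genes) and in Old PF4 against Old Veh (0.0337%). At an unadjusted p below 0.05 there were 6 of 20 in the first (15.2% of all genes) and 5 of 20 in the second (6.2%). Dlg2, also named PSD-93, is a scaffold that binds the tails of NMDA receptor subunits. It rose in Old Veh over Young Veh (log2 fold change 0.40, SE 0.055, adjusted p = 3.62e-06) and was lower in Old PF4 than in Old Veh (-0.29, SE 0.059, adjusted p = 0.0367). The median of the 20 was 0.032 in the first of these comparisons and -0.040 in the second. The interaction for Dlg2 did not pass the test (-0.33, SE 0.080, adjusted p = 0.762). In Old PF4 against Old Veh the Dlg2 call was lost with the length index as a covariate (adjusted p = 0.0647), without Young Veh 4 and Old PF4 8 (adjusted p = 0.0584), without the 8 libraries of lowest depth (adjusted p = 0.329), with the library number as a covariate (adjusted p = 0.350) and when these 2 groups were fitted alone (adjusted p = 0.182). The log2 difference lay between -0.29 and -0.22 in these 5 fits. The call held in 30 of the 47 fits that left out 1 library, and over all 47 the log2 differences lay between -0.32 and -0.26. With the library number as a covariate the age difference of Dlg2 was 0.37 (adjusted p = 0.374). Pick1, which binds GluA2, had the smallest p in Old PF4 against Young PF4 (-0.11, SE 0.059, adjusted p = 0.621), and Dlg4, the scaffold PSD-95, in Young PF4 against Young Veh (0.097, SE 0.075, adjusted p = 1.00).

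No marker of neurons was called between old and young mice. None of the 8 excitatory neuron, 8 pan-neuronal or 7 interneuron markers was called in Old Veh against Young Veh by edgeR, and 1 gene of each list had an unadjusted p below 0.05. Their median log2 differences were -0.045, -0.014 and -0.070. The markers of hippocampal fields had medians of 0.14 in the dentate gyrus, -0.12 in CA1 and 0.065 in CA3 (4 genes each, none called, 1 of each list at an unadjusted p below 0.05). Some glial markers were called. The 6 microglia markers all had values above 0 (median 0.16), 4 of them at an unadjusted p below 0.05, and C1qa rose (0.28, SE 0.073, adjusted p = 0.0262). Of 6 astrocyte markers (median 0.018), 3 had an unadjusted p below 0.05. Slc1a2, the glutamate transporter that clears the synapse, rose (0.19, SE 0.033, adjusted p = 0.000274) and Aldh1l1 fell (-0.19, SE 0.057, adjusted p = 0.0465), and Gfap was at 0.27 (SE 0.083, adjusted p = 0.0568). Between Old PF4 and Young PF4, 2 of the 6 microglia markers rose, C1qa among them (0.42, adjusted p = 0.00255), and all 6 had an unadjusted p below 0.05 (median 0.26). The astrocyte marker Gfap rose as well (0.49, adjusted p = 0.00179). The 6 oligodendrocyte markers all had values above 0 there (median 0.23), 5 of them at an unadjusted p below 0.05, and none was called. The part of these markers in the values of the members was not tested, other than through the excitatory neuron and choroid plexus scores used as covariates. In Old Veh against Young Veh, none of 6 oligodendrocyte, 4 oligodendrocyte precursor and 5 endothelial markers was called, with medians of 0.086, -0.047 and 0.015, and 1, 1 and 0 genes at an unadjusted p below 0.05. The 10 choroid plexus markers had log2 differences between -1.13 and -0.80 in Old Veh against Young Veh, none was called, and none had an unadjusted p below 0.05 there.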

How the data were processed

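RNA from the hippocampus of 47 mice was reverse transcribed by Smart-Seq2 and made into unstranded Nextera XT libraries. For each of 35486 genes the authors deposited raw read counts, without normalization. The submitters' processing notes name Trim Galore 0.3.7, STAR 2.5.3a, GRCm38 and DESeq2. The counting program is not given in the sources used here. The authors left out libraries of low coverage, and none was left out of the main fit here.

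Counts were tested with edgeR 4.0.16 (R 4.3.3; TMM, filterByExpr, quasi-likelihood test), all 4 groups in 1 fit without covariates, with Benjamini-Hochberg adjustment over 17778 genes and a threshold of 0.05. The study used DESeq2, which was run as an alternative (1.42.0). SE was taken as the log2 fold change over the square root of F, without its sign, and intervals use the normal approximation. CPM values use TMM-scaled library sizes, and log2 CPM a prior count of 2. Ratios added 0.5 reads to each gene and used 100000 resamples, and their p-values were adjusted over 12 tests. Depth per library (2242879 to 21112908 reads) limits how precisely low genes were measured. Gene models were those of GENCODE M21.

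Groups followed the labels. Named were all 10 members, called genes and the gene of smallest p per comparison in 3 lists of related genes (8, 14 and 20), and the 3 genes most like a called member. Some genes of the lists and 1 sequence are not reported here. The members and lists were chosen with earlier results of these data known. Replicate numbers recur between groups: 66 same-numbered pairs had correlations of their deviations between -0.425 and 0.554 (median -0.0065), 21 of them above 0.1, so the numbers were not taken to pair mice. No libraries held identical values. Alternatives were DESeq2's test and size factors, other count filters, the groups alone, a replicate block, 4 covariates, and libraries left out. The steps were tested on simulated counts.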

Additional observations from a re-analysis of the deposited data

Results flagged for a closer look

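Dixon's test was applied to the 10 members and 3 ratios in Old PF4, the only group with 10 or fewer libraries, and chance flags about 1 in 20 of such sets. In 3 of 13, library Old PF4 8 lay apart from the other 9. Its log2 CPM of Grin1 was 8.00, with the others between 8.55 and 8.93 (gap over range 0.597, critical value 0.466). That of Grik5 was 5.39, with the others between 5.99 and 6.45 (gap over range 0.564). Its log2 ratio of Grin2b to Grin2a reads was -1.51, with the others between -0.57 and -0.20 (gap over range 0.720). This library also had the second lowest length index of the 47. The part of the length index in these values was not tested.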

How the results depend on the processing

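In Old Veh against Young Veh, the number of members called was 1 with all libraries, 3 with the length index as a covariate, 4 without the 2 libraries of lowest length index, and 0 with the choroid plexus score or the library number as a covariate and without the 8 libraries of lowest depth. It was between 1 and 2 when each library was left out in turn. In the other comparisons it was 0 in all fits. DESeq2's test or size factors, the count filters and the groups fitted alone turned no direction among the members. With the replicate block the count was also 1, with Grin2b at 0.2507. The values below changed sign, all from fold changes or ratio differences that did not pass the test, and the cause was not tested. Grik3 rested on the fewest reads, 36 to 394 per library.

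Over all genes, counts of calls moved by more than 1.5 times in these fits. In Old Veh against Young Veh the count of 492 became 901 with the length index, 807 without the 2 libraries of lowest length index, 176 without the 8 of lowest depth and 0 with the library number (1188 at an unadjusted p below 0.05). The count of 59 in Old PF4 against Young PF4 became 93 by DESeq2's test, 90 with the replicate block, 98 with the length index, 89 without the 2 libraries, 39 with the stricter count filter, 21 with the groups alone and 0 with the library number (649 unadjusted). The count of 6 in Old PF4 against Old Veh became 19 by DESeq2's test, 10 with the replicate block or the choroid plexus score, 15 with the excitatory neuron score, and 0 with the length index, with the library number, without the libraries of lowest depth and with the groups alone (1364, 1133, 1014 and 988 unadjusted). The interaction went from 0 to 1 with no count filter.

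With the replicate block, log2 fold changes were 0.0043 for Gria4 and -0.0049 for Grik5 in Old Veh against Young Veh, 0.0091 for Gria3 and -0.0071 for Gria4 in Old PF4 against Old Veh, -0.0071 for Gria1 in Young PF4 against Young Veh, and -0.0138 for Grik3 in the interaction. With the choroid plexus score, they were -0.0079 for Gria2 and -0.0564 for Grik5 in Old Veh against Young Veh, and -0.0192 for Gria1 and -0.0190 for Grin2b in Old PF4 against Young PF4. With the library number, they were -0.0024 for Grik5 in Old Veh against Young Veh, -0.0059 for Gria4 in Old PF4 against Young PF4, 0.0176 for Gria3 in Old PF4 against Old Veh, and -0.0190 for Gria1 in Young PF4 against Young Veh.

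With the length index, they were -0.0794 for Grik5 in Old Veh against Young Veh, 0.0529 for Grin1 and 0.0164 for Grik5 in Old PF4 against Old Veh, and in the interaction -0.0202 for Gria2, -0.0205 for Gria3, 0.0505 for Grin1, 0.0489 for Grik2 and 0.0024 for Grik5. Ratios taken as residuals on the length index gave a Grin2b to Grin2a difference of -0.0603 in Old Veh against Young Veh and 0.1228 in Old PF4 against Old Veh, and a Gria1 to Gria2 difference of 0.0025 in the latter. Without the 8 libraries of lowest depth, values were -0.0366 for Grik5 in Old Veh against Young Veh, -0.0173 for Grin2b in Old PF4 against Young PF4, 0.0020 for Gria3 and -0.0063 for the Grik2 to Grik5 ratio in Old PF4 against Old Veh, 0.0015 for Gria3 in Young PF4 against Young Veh, and -0.0247 for Gria2 in the interaction.

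Leaving out the 2 libraries of lowest length index was chosen after the data had been seen. In Old Veh against Young Veh it gave -0.0379 for Grik5 and -0.0308 for the Grin2b to Grin2a ratio. In Old PF4 against Young PF4 it gave 0.0110 for Grin1, 0.0580 for the Grin2b to Grin2a ratio and 0.0178 for the Gria1 to Gria2 ratio. In Old PF4 against Old Veh it gave 0.0469 for Grin1, 0.0070 for Grik5, and differences of 0.1101, 0.0180 and -0.0258 for the ratios of Grin2b to Grin2a, Gria1 to Gria2 and Grik2 to Grik5. In Young PF4 against Young Veh it gave -0.0031 for Gria1, -0.0284 for Grin1, -0.0161 for Grik3 and -0.0056 for Grik5. In the interaction it gave -0.0322 for Gria2, -0.0371 for Gria3, 0.0753 for Grin1, 0.0309 for Grik2 and 0.0126 for Grik5.

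Leaving out each library in turn, values crossed 0 over these ranges. In Old Veh against Young Veh they were -0.0321 to 0.0180 for Gria4, -0.0681 to 0.0053 for Grin1, -0.0386 to 0.0423 for Grik5 and -0.0308 to 0.0903 for the Grin2b to Grin2a ratio. In Old PF4 against Young PF4 they were -0.0101 to 0.0382 for Gria1, -0.0863 to 0.0070 for Grin1, -0.0135 to 0.0781 for Grin2b, -0.0890 to 0.0580 for the Grin2b to Grin2a ratio and -0.0458 to 0.0178 for the Gria1 to Gria2 ratio. In Old PF4 against Old Veh they were -0.05 to 0.0026 for Gria2, -0.0405 to 0.0129 for Gria3, -0.0103 to 0.0314 for Gria4, -0.0468 to 0.0466 for Grin1, -0.1080 to 0.0035 for Grik5, and -0.0421 to 0.1101, -0.0456 to 0.0180 and -0.0258 to 0.0771 for the same 3 ratios. In Young PF4 against Young Veh they were -0.0059 to 0.0229 for Gria1, -0.0337 to 0.0006 for Gria2, -0.0295 to 0.0423 for Grin1, -0.0188 to 0.0964 for Grik3 and -0.0064 to 0.0762 for Grik5. In the interaction they were -0.0304 to 0.0232 for Gria2, -0.0142 to 0.0399 for Gria3, -0.0659 to 0.0274 for Grin1, -0.0533 to 0.0015 for Grik2 and -0.0175 to 0.1495 for Grik3.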
